A study of Rattus norvegicus with 46 samples.

Results

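Hair keratins and keratin-associated proteins are the building blocks of the hair shaft and of the sheath that moulds it. They were followed here through a course of radiation to rat skin, with and without the drug RTA-408. The genes were taken by name from the array annotation: every symbol that begins with Krtap, together with Krt25 to Krt28, Krt31 to Krt36, Krt39, Krt40, Krt71 to Krt75 and Krt81 to Krt86. This rule, which uses no measured value, found 33 of the 23188 genes and other features tested, of which 17 are keratins and 16 are keratin-associated proteins (KAPs). On their mean over all arrays, 29 of the 33 lay above the array's negative controls.

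The skin came from 9 Sprague-Dawley rats, biopsied on the abdomen with a 5 mm punch and measured on 46 Clariom S arrays in 16 groups. Baseline skin (6 rats) was taken on day -10, before any drug or radiation. Each of 3 arms was then sampled mid-treatment on day -4 and again on days 1, 3, 7 and 14: irradiated skin given DMSO vehicle (3 rats), irradiated skin given RTA-408 in the same vehicle (3 rats), and vehicle-treated skin given sham radiation, called unirradiated here (2 arrays a day). Radiation was 40 Gy of 6 MeV electrons, split into 4 equal doses of 10 Gy that were spaced over 8 days with a free day between doses. Drug or vehicle was injected on days -7, -5, -3 and 0. RTA-408 is a small molecule that activates the transcription factor NRF2. Most rats gave several biopsies: rats 322, 321 and 320 form the irradiated vehicle arm, rats 324, 323 and 303 the RTA-408 arm, and rats 319 and 318 the unirradiated arm, in which rat 317 takes the place of rat 318 on days 7 and 14. For 1 unirradiated array, that of rat 318 placed on day 1, the labels disagree on the day. Its title and source give day 1 and were followed, and its description gives day 3.

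A hair grows from matrix cells at the base of the follicle, which divide, leave the cell cycle and fill with protein as they move up. Type I and type II keratins pair into filaments, and the KAPs form the cross-linked bed around them in the shaft; the inner root sheath around the shaft uses keratins of its own. Follicles pass through growth, regression and rest, and these genes are expressed in the growth phase. In the type I shaft class stood Krt35, Krt36, Krt39 and Krt40, and in the type II shaft class Krt81, Krt82, Krt84, Krt85 and Krt86. Keratins of the inner root sheath and of the companion layer next to it (Krt75) made up a class of 8 (Krt25 to Krt28, Krt71 to Krt73 and Krt75). The KAPs were split by family and chromosome: 6 of families 7 and 13 to 19 on chromosome 11, 7 of families 10 and 12 on chromosome 20, and 3 others, Krtap1-5, Krtap31-1 and Krtap5-8. Members of a KAP family are close copies of each other, so probes may read more than 1 gene, and values of single KAPs are uncertain to that extent.

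RefSeq held a promoter for 30 of the 33 genes (build GRCr8); Krt81, Krt86 and Krtap12-1 had no entry. The promoters below are shown as examples of a KAP, a shaft and a sheath gene that carry 1 or both of 2 motifs: TATAAA, the core of the TATA box, and CTTTGAAGA, a sequence recognised by LEF1, a regulator of the hair matrix. Capitals mark these motifs on the printed strand; each run ends 1 base before the annotated start of the gene.
Krtap7-1, chr11:42227231-42227480, minus strand: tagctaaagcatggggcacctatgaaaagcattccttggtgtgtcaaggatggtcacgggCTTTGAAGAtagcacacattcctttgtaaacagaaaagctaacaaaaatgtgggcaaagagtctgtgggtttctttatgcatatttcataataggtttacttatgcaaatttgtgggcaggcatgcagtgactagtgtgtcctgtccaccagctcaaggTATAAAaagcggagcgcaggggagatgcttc
Krtap14, chr11:41613719-41613968, minus strand: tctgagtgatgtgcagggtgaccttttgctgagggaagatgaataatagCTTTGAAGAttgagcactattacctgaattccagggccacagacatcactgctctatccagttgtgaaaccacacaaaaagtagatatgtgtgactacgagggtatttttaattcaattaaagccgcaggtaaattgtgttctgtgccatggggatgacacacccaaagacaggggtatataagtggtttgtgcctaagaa
Krt85, chr7:134515787-134516036, minus strand: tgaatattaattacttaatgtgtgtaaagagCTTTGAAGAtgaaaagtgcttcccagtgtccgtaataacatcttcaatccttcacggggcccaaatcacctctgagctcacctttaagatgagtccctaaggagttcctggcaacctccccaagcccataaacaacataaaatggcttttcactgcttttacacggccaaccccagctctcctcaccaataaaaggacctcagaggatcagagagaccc
Krt25, chr10:84771198-84771297, minus strand: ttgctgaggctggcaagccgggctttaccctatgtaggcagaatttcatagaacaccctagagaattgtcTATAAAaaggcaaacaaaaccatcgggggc

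In the 250 bases before the start, searched on both strands, TATAAA was found in 21 of the 30 promoters (70.0%) and in 4328 of the 33469 promoters in the table (12.9%). On the gene's own strand and beginning 20 to 40 bases before the start, it was found in 8 (26.7%), against 459 of all promoters (1.37%). CTTTGAAGA was found in 3 (10.0%), the promoters of Krt85, Krtap14 and Krtap7-1, against 125 (0.373%). The shorter CTTTGA, which CTTTGAAGA contains, was found in 8 (26.7%) against 4656 (13.9%). A match describes the letters and is no evidence that a protein binds there.

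All levels are the deposited log2 signals, and differences are given in the same log2 units. Between irradiated and unirradiated skin, fell and rose mean lower and higher in irradiated skin on that day, not a change over time. Array medians lay between 6.84 and 6.95 and the medians of the negative controls between 5.78 and 6.52. Any 2 arrays of the same group correlated at 0.927 to 0.99 over all features. The deposited values reach 19.66 to 19.93, above the 16 that a plain log2 of 16-bit scanner counts allows, so differences are not converted to folds. Genes cannot be ranked by level, since each is read by other probes. Signals of the spike-in controls split the arrays into 3 sets: set I holds all baseline arrays and the unirradiated arrays of days -4 and 1, set III the unirradiated arrays of days 3, 7 and 14, and irradiated arrays lie in all 3. Of the arrays, baseline rat 321 stands apart in these genes, and it was kept. A whole biopsy was measured, so fewer follicle cells and less RNA per cell cannot be told apart. Several biopsies come from 1 rat, which the tests treat as separate samples.

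**Figure D1:**
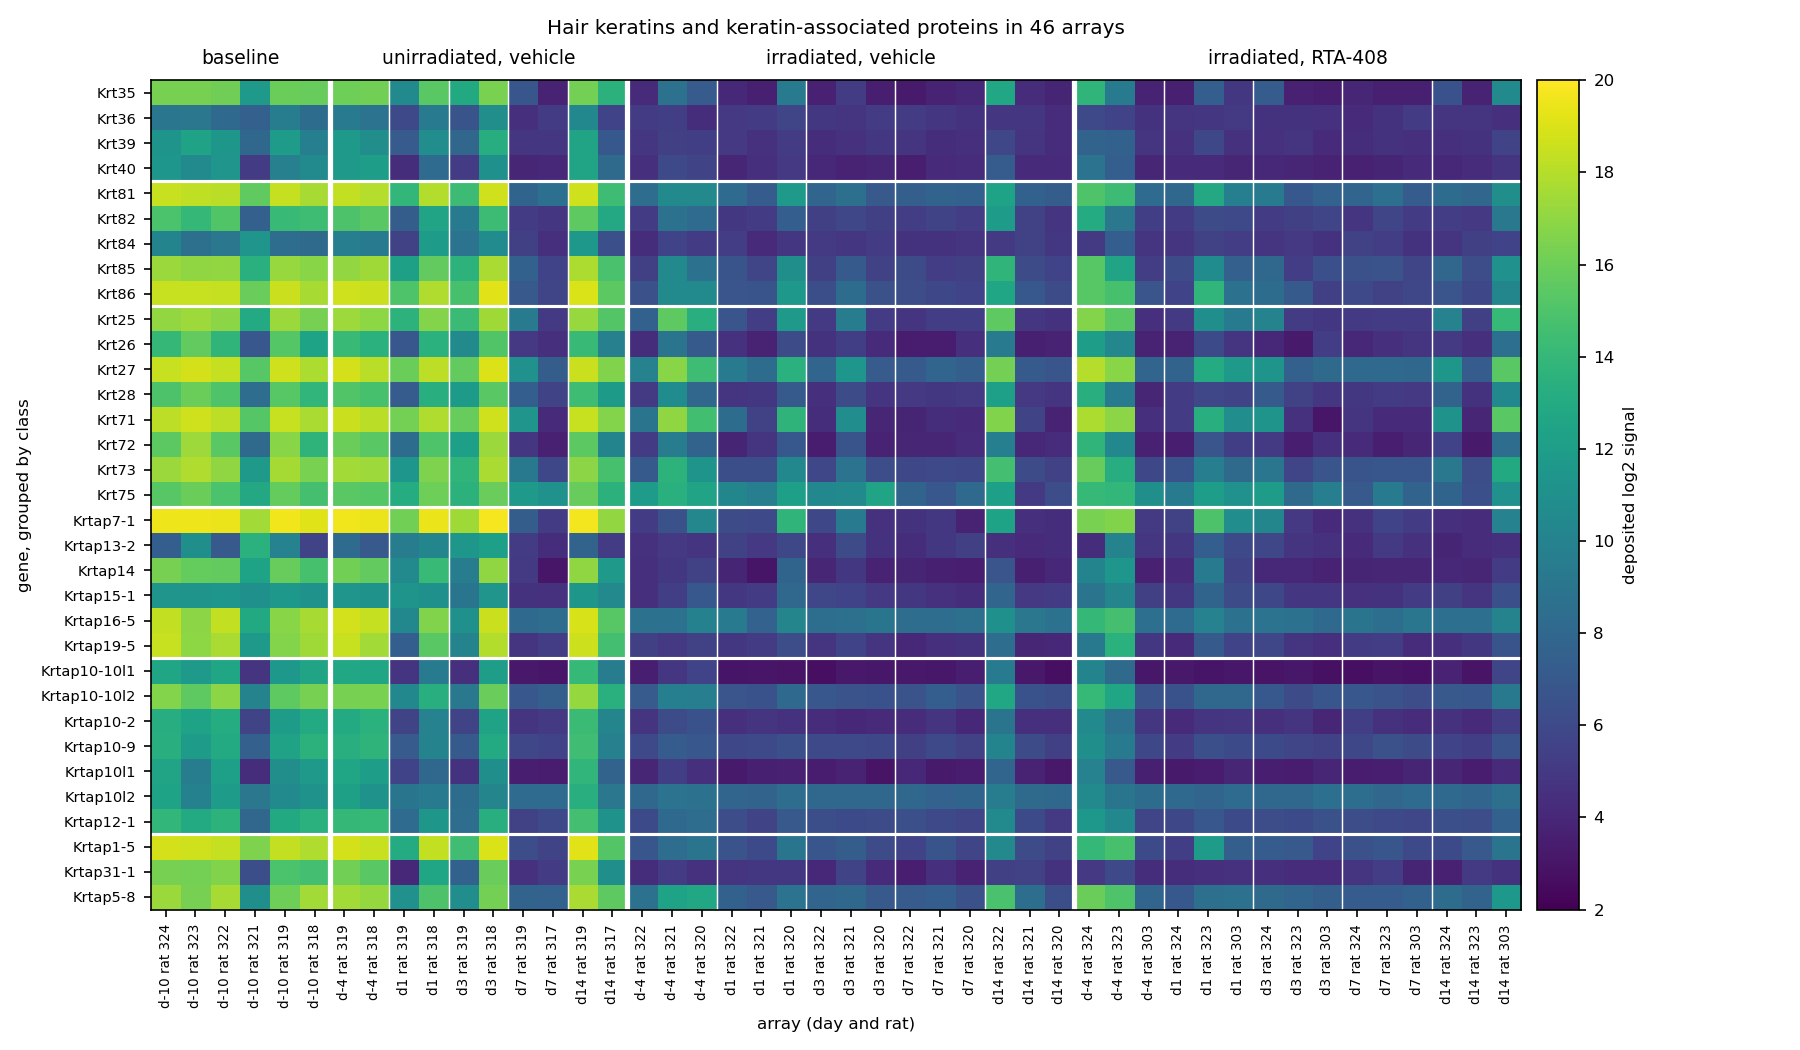
Deposited log2 signal (colour) of the 33 genes (rows, grouped by class with white lines between classes) in the 46 arrays (columns, by group, day and rat). Baseline and most unirradiated arrays are bright, the unirradiated day 7 arrays and most irradiated arrays are dark; colours compare arrays within a row, not rows with each other.

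At baseline these genes were at high signal in 5 of 6 rats. The median over the 33 genes was 15.43 in rat 324, 15.93 in rat 323, 15.36 in rat 322, 15.57 in rat 319 and 14.62 in rat 318, and 11.06 in rat 321. The number of genes above the negative controls was 29 to 33 of 33. Krtap7-1, a glycine- and tyrosine-rich KAP of the shaft cortex, gave 19.54, 19.54, 19.49, 17.51, 19.60 and 19.14 in rats 324, 323, 322, 321, 319 and 318, close to the upper end of the scale. In rat 321, 31 of the 33 genes were at their lowest baseline value. Both exceptions ran the other way: Krtap13-2 (7.39, 10.94, 7.01, 13.53, 9.98 and 5.66 in the same order) and Krt84 (10.12, 8.62, 9.17, 11.39, 8.46 and 8.20) were at their highest there.

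Without radiation the genes did not stay at this level: on day 7 they were near the negative controls in both unirradiated rats, and on day 14 they were back at or near the baseline range. The median of the 33 in the unirradiated arm was 15.93 (rat 319) and 15.40 (rat 318) on day -4, 9.59 and 13.47 on day 1, 10.60 and 15.87 on day 3, 5.81 (rat 319) and 5.16 (rat 317) on day 7, and 15.81 and 11.83 on day 14. Rat 319, measured at every time, therefore went from 15.57 at baseline to 5.81 on day 7 and 15.81 on day 14. Rat 318 was not measured after day 3 and rat 317 not before day 7.

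**Figure D2:**
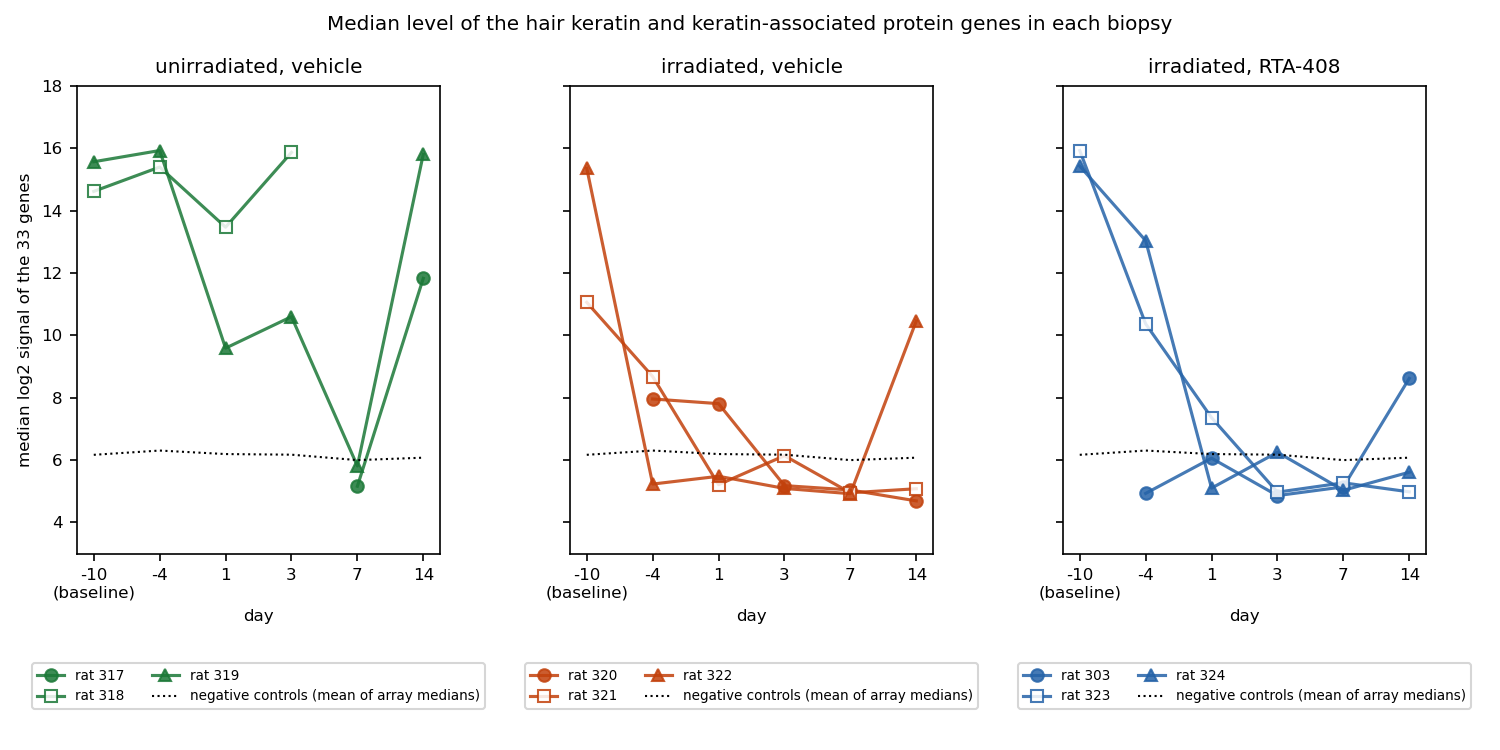
Median log2 signal of the 33 genes in each biopsy (vertical axis) by day (horizontal axis, spaced by visit), 1 panel per arm and 1 line per rat, with each rat's own baseline where it has one; the dotted line is the mean of the negative control medians. Unirradiated rats lie at 5.81 and 5.16 on day 7 and at 15.81 and 11.83 on day 14, while the irradiated arrays of days 1 to 7 lie between 4.86 and 7.81.

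Against baseline, 30 of the 33 genes fell in unirradiated skin on day 7 (limma, Benjamini-Hochberg adjusted p under 0.05), where 1.85% of all features did. The day 7 and baseline arrays did not overlap for any of the 33, and the median difference was -8.29 (-7.97 with levels at the negative controls counted from there), 19 genes being at or below those controls on day 7. Here and below, overlap was counted for the 33 genes only and not for all features. In groups this small, arrays can also separate by chance. Krtap7-1 went from a mean of 19.14 to 6.22, a difference of -12.92 ± 2.45 (SE; limma, adjusted p = 0.00277). Its values near the upper end of the scale may understate the level, so a fall from such values is best read as a lower limit. This does not cover comparisons in which neither side is near that end, such as RTA-408 against vehicle. The highest values of Krt86 (19.2), Krtap1-5 (19.19) and Krt27 (19.02) also came near it. Krtap1-5, a cysteine-rich KAP, gave 6.23 and 5.71 on day 7 against 16.55 to 18.86 at baseline and fell by at least 11.88 (limma, adjusted p = 5.55e-05). Krt86, a type II keratin of the shaft cortex, gave 7.04 and 5.78 against 15.90 to 18.59, a difference of -11.50 ± 1.87 (limma, adjusted p = 0.000444). Of the genes that passed and were measured on both sides, Krtap10l2 differed least (-2.58 ± 0.69, limma, adjusted p = 0.0371); its lowest value in any of the 46 arrays was 7.67, above the controls. Krt36 was below the controls on day 7 and fell by at least 2.47 (limma, adjusted p = 0.00704). All 9 shaft keratins and all 16 KAPs passed, and 5 of 8 sheath and companion keratins. The 3 that did not were Krt25 (-9.06 ± 2.60, limma, adjusted p = 0.0510), Krt71 (-10.00 ± 3.10, limma, adjusted p = 0.0725) and Krt75 (-3.45 ± 1.29, limma, adjusted p = 0.145).

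On the other days no gene of the 33 passed between unirradiated and baseline skin: on days -4, 1, 3 and 14 the median differences were 0.82, -2.51, -1.13 and -0.31. On these days 0, 9, 2 and 1 of the 33 had an unadjusted limma p under 0.05. Over all 23188 features, 2115, 3126, 1058 and 984 had such a p. Of all features, 0.00431%, 0.0431%, 0% and 0% fell and 0.0129%, 0.272%, 0% and 0% rose on those days. Over all features, the median difference lay between -0.056 and 0.074 in every comparison of groups reported here. A test of any difference between the 5 unirradiated days called 18 of 33 genes (limma F-test, adjusted p under 0.05), against 1.13% of all features: all 6 KAPs of families 7 and 13 to 19, 4 of the 7 of families 10 and 12, 2 other KAPs, 6 shaft keratins and none of the 8 sheath and companion keratins. The smallest adjusted p of this F-test in limma among the named KAPs was 0.00425 (Krtap15-1), followed by Krtap1-5 (0.00627). With the replicate number as a block within the arm, 7 of 33 passed, without replicate 1 (rat 319) also 7, and with the unirradiated arm fitted alone 0. The day 7 count rests on few arrays: it was 17 on the compared groups alone, 11 without rat 319 and 6 without rat 317, where the remaining array was taken to vary as the other groups do. All day 7 arrays are in another spike-in set than the baseline. With set as a block no gene passed on day 7 (median -4.67) and the medians of days 3 and 14 were above 0 (1.45 and 2.63). Each baseline and unirradiated group lies within 1 set, so this block rests on differences among irradiated arrays only. No baseline array shares a set with an unirradiated array after day 1, so set and day cannot be told apart there. The day 14 arrays, in the same set as those of day 7, had medians of 15.81 (rat 319) and 11.83 (rat 317). Baseline medians were 11.06 in rat 321 and 14.62 to 15.93 in the other rats.

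The genes were lower in irradiated skin by the mid-treatment biopsy. On day -4 all 33 were lower in irradiated than in unirradiated vehicle skin with no overlap between the arrays, which was not counted over all features. Of the 33, 26 passed (limma, adjusted p under 0.05), where 4.19% of all features were called lower. The median difference was -7.03 (range -12.69 to -2.77), against 0.074 over all features, and -6.76 with levels at the negative controls counted from there, which applied to 12 genes in irradiated skin. The median of the 33 in the irradiated vehicle arrays was 5.23 (rat 322), 8.68 (rat 321) and 7.96 (rat 320), against 15.93 and 15.40 in unirradiated skin. It lay 10.13 below the animal's own baseline in rat 322 and 2.38 below it in rat 321, whose baseline was low. Rat 320 has no baseline array. That day the array of rat 322 is in spike-in set II and those of rats 321 and 320 are in set I. Animal and set cannot be told apart in the low values of rat 322. All 9 shaft keratins fell, all 7 KAPs of families 10 and 12, 5 of 6 KAPs of families 7 and 13 to 19, 2 of 3 other KAPs, and 3 of 8 sheath and companion keratins.

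The KAPs gave the lowest differences on day -4. Krtap19-5, a glycine- and tyrosine-rich KAP, was at 18.51 and 17.49 in unirradiated skin and at 5.38, 5.02 and 5.52 in irradiated skin, and fell by at least 11.61 (limma, adjusted p = 0.000241). Krtap7-1 was at 19.61 and 19.45 against 5.15, 6.43 and 10.33, a difference of -12.22 ± 2.74 (limma, adjusted p = 0.00637); rat 320 kept the highest of the irradiated values. Krtap31-1 was at 16.14 and 15.40 against 4.34, 5.22 and 4.54, and fell by at least 9.38 (limma, adjusted p = 0.00175). Krtap14, whose promoter is printed above, was at 16.18 and 15.66 against 4.51, 4.90 and 5.48, and fell by at least 9.53 (limma, adjusted p = 0.000446). In each of these KAPs all 3 irradiated rats lay far below both unirradiated rats.

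Shaft keratins followed the same direction. Krt35, a type I keratin that starts early in the shaft, was at 16.02 and 16.17 in unirradiated skin and at 4.19, 8.71 and 7.14 in irradiated skin, a difference of -9.41 ± 2.31 (limma, adjusted p = 0.0109). Krt85, the type II keratin that starts with it, was at 17.11 and 17.46 against 5.44, 10.54 and 8.73 (-9.05 ± 2.14, limma, adjusted p = 0.00863). Krt86 was at 18.71 and 18.59 against 6.46, 10.51 and 10.51 (-9.49 ± 2.09, limma, adjusted p = 0.00589). In these 3 genes rat 322, whose array is in another spike-in set than the rest, was the lowest irradiated animal. Among the genes that passed and were measured on both sides, the difference closest to 0 was that of Krtap10l2 (-3.15 ± 0.77, limma, adjusted p = 0.0110). Krt36 and Krt84 were below the controls in irradiated skin and fell by at least 2.77 (limma, adjusted p = 0.00516) and at least 3.11 (limma, adjusted p = 0.0132).

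Of the 8 sheath and companion keratins, 5 did not pass on day -4. Krt71, a type II keratin of the inner root sheath, was at 18.53 and 18.15 in unirradiated skin and at 8.90, 17.01 and 14.52 in irradiated rats 322, 321 and 320. Its difference was -4.86 ± 3.47 and did not pass (limma, adjusted p = 0.459). Krt27, a type I keratin of the same layer, was at 18.84 and 18.12 against 9.99, 16.81 and 14.43 (-4.74 ± 2.49, limma, adjusted p = 0.272). Krt75, of the companion layer, was at 15.41 and 15.28 against 11.85, 13.40 and 12.49 (-2.77 ± 1.44, limma, adjusted p = 0.268). Rat 321 thus had Krt71 at 17.01, above the 15.24 of its own low baseline. Its Krtap7-1 was at 6.43 (own baseline 17.51) and its Krtap19-5 at 5.02 (own baseline 11.75). Krt72, a keratin of the sheath cuticle, did pass (-8.15 ± 2.34, limma, adjusted p = 0.0275).

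**Figure D3:**
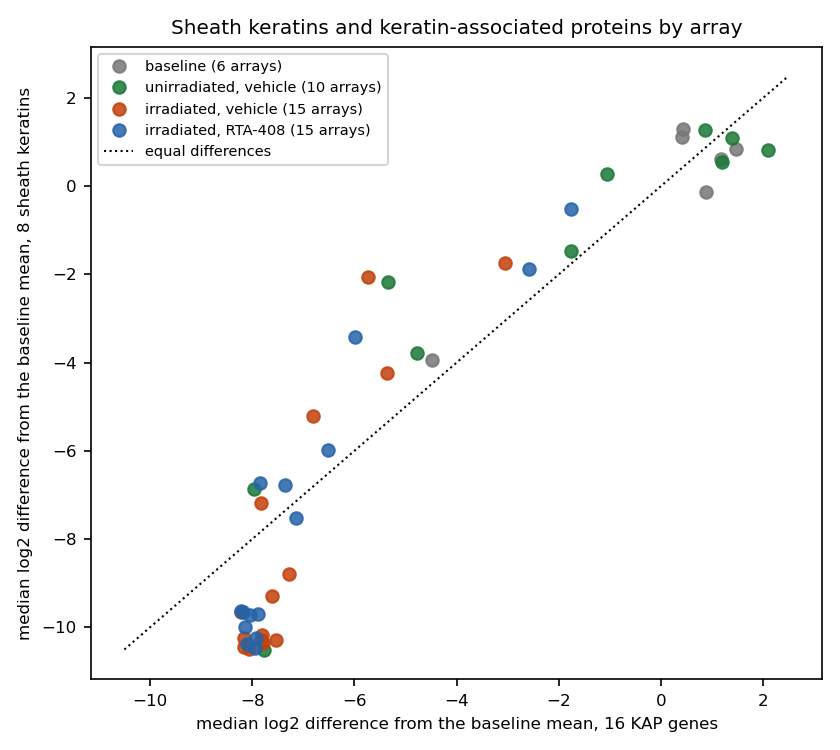
Each point is 1 of the 46 arrays: the median log2 difference of the 16 KAP genes from their own baseline means (horizontal axis) against that of the 8 sheath and companion keratins (vertical axis), with a dotted line of equal differences. Irradiated vehicle rat 321 on day -4 lies farthest above the line (-2.07 for the sheath keratins, -5.73 for the KAPs), and its own baseline array lies at -3.93 and -4.48. Arrays at the lower left lie below the line, where KAP differences end near -8 and sheath differences near -10.

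Set against each gene's own baseline mean, the sheath keratins of irradiated vehicle skin on day -4 were at a median of -8.78, -2.07 and -4.23 in rats 322, 321 and 320, and the KAPs at -7.28, -5.73 and -5.37. The baseline array of rat 321 was itself at -3.93 for the sheath keratins and -4.48 for the KAPs. Against that array, the sheath median of rat 321 was higher on day -4 and the KAP median lower. In RTA-408 rats 324 and 323 on the same day the sheath keratins were at -0.52 and -1.89 and the KAPs at -1.76 and -2.58, while in rat 303 the order was the opposite, at -10.25 and -7.93. Partly lowered arrays without radiation showed values on the same side: rat 319 on day 3 was at -2.17 for the sheath keratins and -5.34 for the KAPs, and on day 1 at -3.78 and -4.77. Over the 30 irradiated arrays the sheath difference was above the KAP difference in 11, and the gap ran from -2.75 to 3.66. These are descriptions without a test, and near the negative controls each gene's difference is limited by how far its baseline lies above them.

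On day 1 all 33 genes were lower in irradiated than in unirradiated vehicle skin, and 5 passed against 0.901% of all features called lower. The median difference was -4.71 (-4.35 counted from the controls) against -0.031 over all features. The arrays did not overlap for 30 genes, which was not counted over all features and can happen by chance with so few arrays. The 5 were Krtap1-5 (-8.50 ± 1.82, limma, adjusted p = 0.0120), Krt86 (-8.10 ± 2.09, limma, adjusted p = 0.0339), Krt81 (-6.84 ± 1.68, limma, adjusted p = 0.0263), Krtap14 (at least 5.63 lower, limma, adjusted p = 0.0235) and Krtap15-1 (at least 4.35 lower, limma, adjusted p = 0.00450). Krtap15-1 was at 11.33 and 11.00 in unirradiated skin and at 4.89, 5.19 and 8.10 in irradiated skin; its 6 baseline values, 11.06 to 11.60, spread little. Krt86 was at 15.01 and 17.87 against 6.73, 6.65 and 11.62, with rat 320 the highest irradiated animal. Rat 319 of the unirradiated arm was itself lower than rat 318 in 32 of the 33 genes that day, and the labels of that rat 318 array disagree on its day.

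On day 3, 16 of the 33 genes passed, against 0.647% of all features called lower. The median difference was -6.77 (-5.89 counted from the controls) against 0.046 over all features. The arrays did not overlap for any of the 33, which was not counted over all features and can happen by chance with so few arrays. Krtap7-1 was at 17.45 and 19.74 in unirradiated skin and at 5.92, 9.44 and 4.55 in irradiated skin (-11.96 ± 2.74, limma, adjusted p = 0.0169). Krt35 was at 12.90 and 16.36 against 3.67, 5.22 and 3.49, and fell by at least 8.48 (limma, adjusted p = 0.0120). Krtap13-2, a cysteine-rich KAP, was at 11.51 and 12.19 against 4.43, 6.14 and 4.66, and fell by at least 5.65 (limma, adjusted p = 0.00615), the only one of the 5 days on which it passed. None of the 7 KAPs of families 10 and 12 passed that day, while 7 of the 9 shaft keratins and 3 of the 8 sheath and companion keratins did. Krt71 was at 15.79 and 18.71 against 4.35, 10.83 and 3.91 and did not pass (-10.88 ± 3.47, limma, adjusted p = 0.112).

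On day 7 both arms were near the negative controls and no gene passed (limma, lowest adjusted p among the 33 = 0.129), against 1.33% of all features called lower. An unadjusted limma p under 0.05 was seen for 1 gene of the 33 and for 4162 of all 23188 features. Irradiated values were lower in 23 of 33 genes, the median difference was -0.42 against -0.056 over all features, and 24 genes in irradiated and 19 in unirradiated skin were at or below the controls. The median of the 33 was 4.92, 4.95 and 5.04 in the irradiated vehicle rats and 5.81 and 5.16 in the unirradiated rats. Krt75 was the most different: it was at 11.77 and 11.14 in unirradiated and at 7.72, 6.90 and 8.14 in irradiated skin, with no overlap (-3.87 ± 1.44, limma, adjusted p = 0.129). Unirradiated rat 319 also kept Krt27 at 11.08 and Krt71 at 11.39, values not seen in rat 317 (7.29 and 4.11).

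On day 14 the arms were apart again: 25 of 33 genes were called lower in irradiated skin, against 2.53% of all features. The median difference was -6.76 (-6.75 counted from the controls), against 0.006 over all features. From day 7 to day 14 the median of the 33 went from 5.81 and 5.16 to 15.81 and 11.83 in unirradiated skin. In irradiated rats 322, 321 and 320 it went from 4.92, 4.95 and 5.04 to 10.46, 5.08 and 4.69. Krtap7-1 was at 19.67 and 17.09 in unirradiated skin and at 12.44, 4.50 and 4.36 in irradiated skin (-11.28 ± 2.74, limma, adjusted p = 0.0101). Krtap19-5 was at 18.60 and 14.65 against 8.44, 3.95 and 4.07, at least 9.68 lower in irradiated skin (limma, adjusted p = 0.000920). Krtap1-5 was at 19.19 and 15.15 against 10.46, 6.19 and 5.56 (-9.76 ± 1.82, limma, adjusted p = 0.00121). All 9 shaft keratins, 15 of the 16 KAPs and 1 of the 8 sheath and companion keratins passed, and the exception among the KAPs was Krtap13-2 (limma, adjusted p = 0.469). The sheath gene that passed was Krt75, at 15.81 and 13.54 against 12.18, 5.08 and 6.23 (-6.84 ± 1.44, limma, adjusted p = 0.00374), while Krt71, at 18.49 and 16.64 against 16.59, 5.67 and 3.80, did not (limma, adjusted p = 0.128). Irradiated rat 322 stands apart that day, with a median of 10.46 over the 33 genes where rats 321 and 320 had 5.08 and 4.69.

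With 2 unirradiated arrays a day, these counts move with single arrays. On day -4 the 26 became 16 without irradiated rat 322, 6 without unirradiated rat 319 and 7 without rat 318. On day 1 the 5 became 2, 1 and 1 without irradiated rat 322, irradiated rat 321 and unirradiated rat 318, and on day 3 the 16 became 10, 7, 28 and 0 without irradiated rats 322 and 320 and unirradiated rats 319 and 318. On day 14 the 25 became 13, 6 and 0 without irradiated rats 321 and 320 and unirradiated rat 319. Within a single spike-in set, 14 of 33 passed on day -4 (median -6.39), 1 on day 1 (-4.42), 12 on day 3 (-6.45) and 28 on day 14 (-8.81), all lower. Fitted on the compared groups alone, 1 passed on day 1, 1 on day 7 and none on day 14. A test of whether the radiation difference changed over the 5 days called 1 of 33 genes, Krtap1-5 (limma F-test, adjusted p = 0.0493; 2.16% of all features). For this change over days, no gene passed with the replicate number as a block within the arm, and none without any 1 of the irradiated vehicle replicates, against 5 and 6 without unirradiated replicate 1 or 2.

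**Figure D4:**
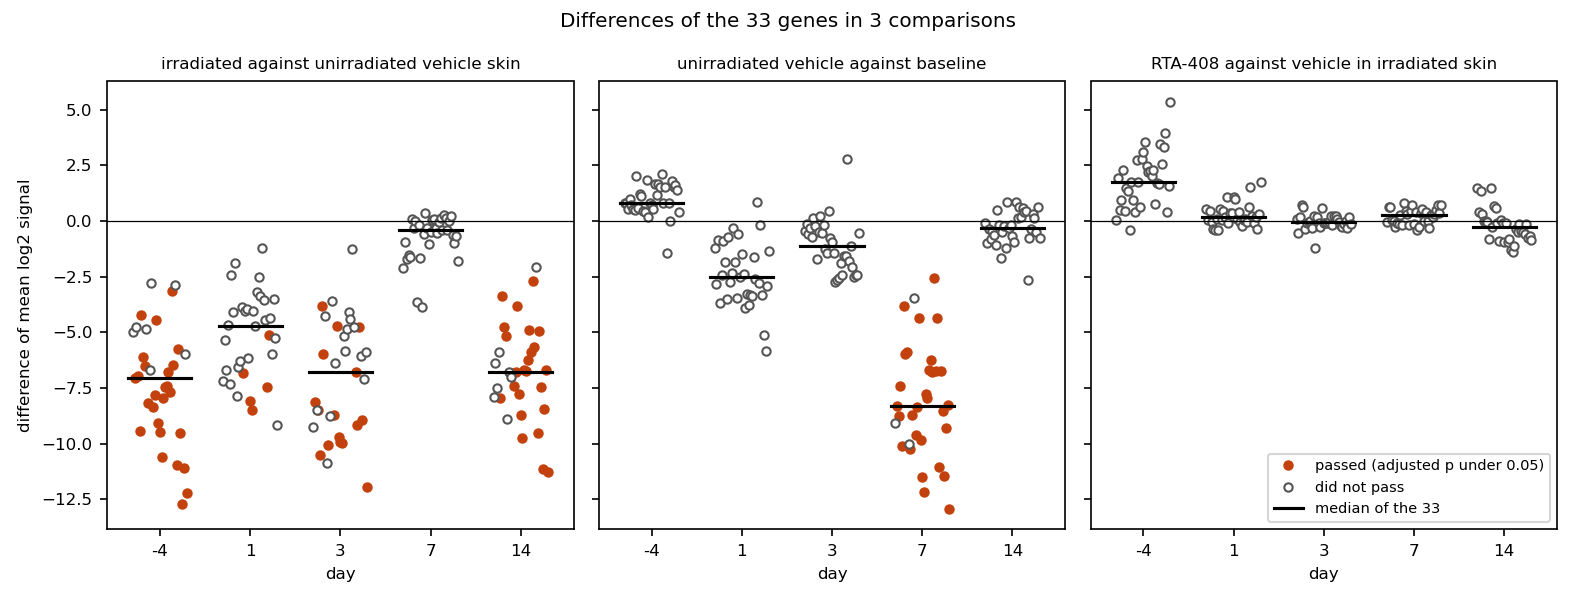
Difference of mean log2 signal (vertical axis) for each of the 33 genes by day (horizontal axis) in 3 comparisons, with filled points for genes that passed (limma, adjusted p under 0.05), open points for the rest and a bar at the median. Irradiated skin is lower on every day but day 7 (medians -7.03, -4.71, -6.77, -0.42 and -6.76), unirradiated skin differs from baseline on day 7 (-8.29), and no gene passed between the drug and the vehicle.

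Set against baseline, the irradiated vehicle skin was lower in nearly all of the 33 genes on every day. The number that fell was 29, 33, 33, 33 and 33 on days -4, 1, 3, 7 and 14, against 4.26%, 4.65%, 3.97%, 6.06% and 5.96% of all features, with medians of -5.77, -8.01, -8.32, -8.92 and -7.08 (-5.23, -7.55, -8.02, -8.17 and -6.66 counted from the controls). The 4 genes that did not pass on day -4 were sheath or companion keratins, among them Krt71 (-4.27 ± 2.68, limma, adjusted p = 0.353). By day 7 Krtap7-1 was at 4.67, 4.89 and 3.69 and had fallen by at least 13.14 (limma, adjusted p = 6.69e-06). Krt71 was at 3.83, 4.37 and 4.17 that day and had fallen by at least 11.76 (limma, adjusted p = 0.000437). Between the 5 irradiated vehicle days, 1 of 33 genes passed (limma F-test, 14.2% of all features), Krt75, which was at 11.85, 13.40 and 12.49 on day -4 and at 7.72, 6.90 and 8.14 on day 7 (adjusted p = 0.0154 in limma); it was not called without irradiated vehicle replicate 2 or 3. These comparisons use the same 6 baseline arrays as those of the unirradiated arm. On day -4 the count was 17 without irradiated rat 322, and with the spike-in set as a block it was 4, 9 and 6 on days 3, 7 and 14, with all 33 genes lower each day; within the baseline's own set, 15 passed on day -4 and 31 on day 1.

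RTA-408 skin was lower than baseline as well: 13, 32, 33, 33 and 31 genes fell on the same days, against 1.57%, 4.79%, 4.36%, 6.67% and 4.71% of all features, with medians of -4.14, -7.78, -8.23, -8.58 and -6.83 (-4.14, -7.59, -8.03, -8.03 and -6.71 counted from the controls). The 13 of day -4 were 3 type I and 4 type II shaft keratins, 4 KAPs of families 7 and 13 to 19 and 2 other KAPs. Krtap31-1 fell by at least 7.96 (limma, adjusted p = 0.000326) and Krtap19-5, at 9.25, 13.52 and 4.93 in rats 324, 323 and 303, differed by -7.26 ± 1.54 (limma, adjusted p = 0.00344). Krtap7-1, at 16.35, 16.58 and 5.03, did not pass (-6.49 ± 2.12, limma, adjusted p = 0.0623). The median of the 33 that day was 13.04, 10.37 and 4.93. It lay 2.39 below the animal's own baseline in rat 324 and 5.56 below it in rat 323, and rat 303, the lowest, has no baseline array. The array of rat 303 is in spike-in set II and those of rats 324 and 323 are in set I. Animal and set cannot be told apart in the low values of rat 303. The count of day -4 was 23 with the replicate number as a block (replicates 1 and 2 are the same rats as in the baseline), 25 without baseline rat 321, 24 without rat 324, 1 without rat 303, 4 on the compared groups alone and 0 within the baseline's spike-in set (median -1.91). With set as a block it was 4, 10 and 4 on days 3, 7 and 14. Between the 5 RTA-408 days no gene passed (limma F-test, lowest adjusted p = 0.0522, 8 genes with an unadjusted p under 0.05, 6.26% of all features), but 5 did without replicate 3.

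Between RTA-408 and vehicle in irradiated skin no gene of the 33 passed on any day (limma, adjusted p under 0.05); of all features 0.0431%, 0.0733%, 0.00431%, 0% and 0% were called higher on days -4, 1, 3, 7 and 14, and 0.00431% on day -4 and 0% on the later days lower. The median difference was 1.77 on day -4, with 32 of 33 genes higher in the drug arm. That day 6 genes had an unadjusted limma p under 0.05, as had 976 of all 23188 features. On the later days the median was 0.18, -0.05, 0.27 and -0.27, with no gene under an unadjusted p of 0.05. Within a single spike-in set, with 2 arrays an arm, the medians were 3.09, -0.27, -0.03, 0.22 and 1.69 on the 5 days. There 33, 10, 16, 20 and 30 of the 33 genes were higher in the drug arm and none passed. For Krtap7-1 the irradiated vehicle rats were at 5.15, 6.43 and 10.33 on day -4 and the drug rats at 16.35, 16.58 and 5.03, so the groups overlap; the difference was 5.35 ± 2.45, with a 95% interval of 0.37 to 10.32 (limma, adjusted p = 1). Krtap15-1 had the lowest p of the 33 that day, with 4.40, 5.36 and 6.98 against 8.90, 10.19 and 5.39 (2.58 ± 0.87, limma, adjusted p = 0.993). On no day did the arrays fail to overlap for more than 4 genes, which was not counted over all features. The widest intervals were wide: the lowest and highest limits over the 33 genes were -6.72 to 10.32 on day -4, -5.76 to 6.85 on day 1, -6.31 to 6.29 on day 3, -6.03 to 6.57 on day 7 and -5.84 to 7.80 on day 14. The median SE of a gene was 1.64 on each day. For genes with wide intervals, differences of several log2 units in either direction were not detectable with 3 rats an arm. Genes with a smaller SE had narrower intervals. The SE is pooled over all 16 groups, so these intervals do not give the spread of the rats on a single day. On day 7 the median of the 33 was 5.03, 5.27 and 5.14 in drug rats and 4.92, 4.95 and 5.04 in vehicle rats. There 21 to 26 genes an array were at or below the negative controls, and 9 to 25 on days 1 and 3. For such genes a lower level in either arm could not be measured. Leaving out 1 array moved the day -4 median between 0.65 and 3.88, and turned the sign of the day 1, 3 and 14 medians, that of day 14 to 1.28 without irradiated vehicle rat 322. With each rat's 5 days averaged first, the median was 0.36 (-0.003 over all features), 30 genes were higher in the drug arm, 4 had an unadjusted p under 0.05 and none passed (limma, adjusted p = 1, where 0% of all features were called). A change of the drug difference over days was called for none of the 33 (limma F-test, lowest adjusted p = 0.987, none with an unadjusted p under 0.05; 0.0129% of all features called).

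On day 14 single irradiated animals of both arms were above the rest. Vehicle rat 322 had a median of 10.46 and RTA-408 rat 303 one of 8.62, where the other 4 irradiated arrays had 4.69 to 5.61. Krt71 was at 16.59 in rat 322 and 15.39 in rat 303, against 5.67, 3.80, 11.28 and 3.90 in rats 321, 320, 324 and 323. Krtap7-1 was at 12.44 and 9.95 in the former and at 4.50, 4.36, 4.42 and 4.32 in the latter. In RTA-408 rat 324 the inner root sheath keratins Krt71 (11.28) and Krt27 (11.51) were above the day 7 values of that rat (4.80 and 8.16) while Krtap7-1 was not (4.42 against 4.60). These are single arrays and no test was made between them.

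Within the set, Krtap13-2 followed the others least. Over the 46 arrays, its Pearson correlation with the median of the other members was 0.646, where those of the remaining 32 were 0.844 to 0.984; the arrays share rats and days, and no p is given. In skin without radiation it was at 8.28 and 7.02 on day -4, 9.59 and 10.27 on day 1, 11.51 and 12.19 on day 3, 5.10 and 4.39 on day 7 and 7.70 and 5.13 on day 14. It was thus at its highest in that arm on day 3, a day on which Krtap16-5, a KAP of the same chromosome cluster, was at 11.00 in rat 319 and 18.53 in rat 318, against 18.80 and 18.43 on day -4. In irradiated vehicle skin Krtap13-2 was between 4.13 and 6.14 in all 15 arrays.

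**Figure D5:**
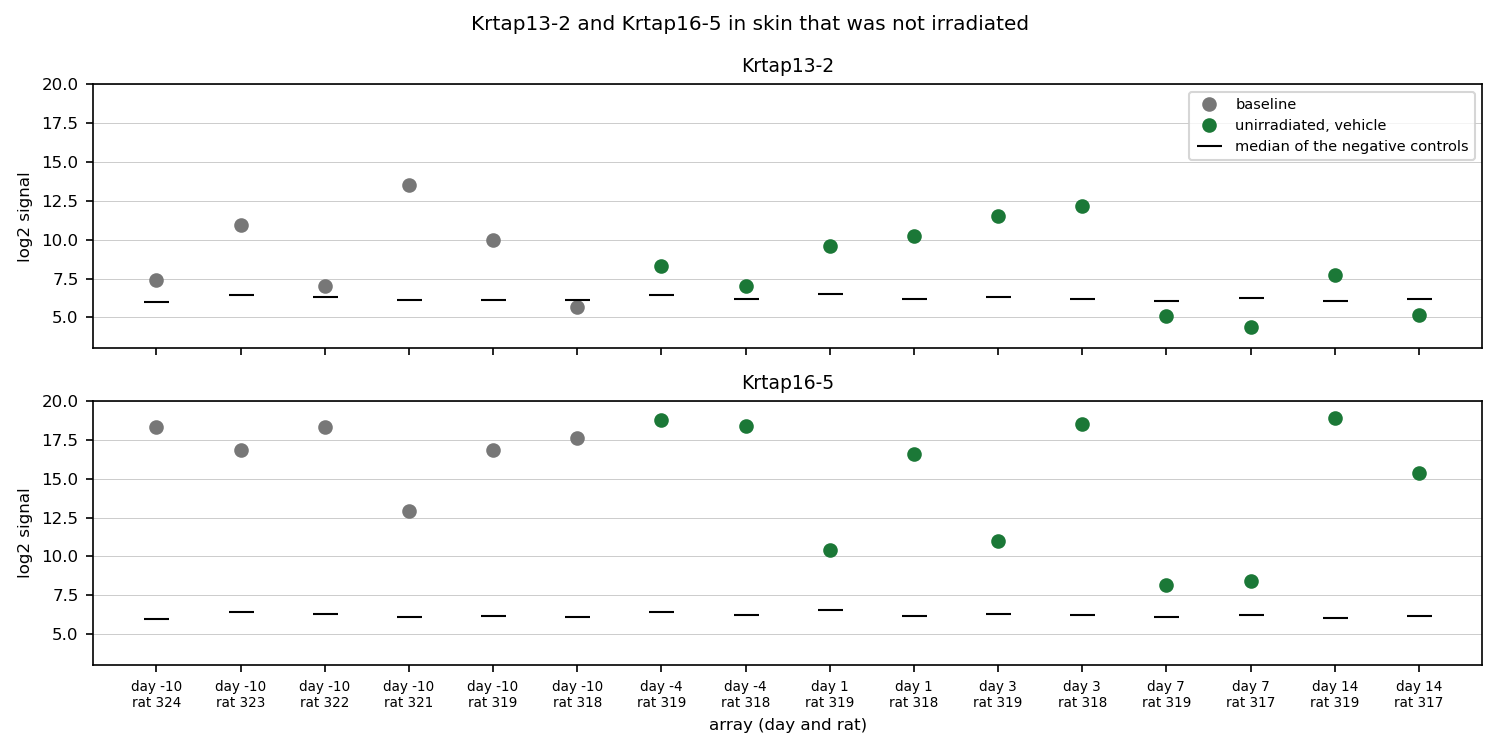
Log2 signal (vertical axis) of Krtap13-2 (upper panel) and Krtap16-5 (lower panel) in the 16 arrays of skin without radiation (horizontal axis, by day and rat), with a dash at each array's negative control median. Krtap13-2 is highest in baseline rat 321 (13.53), where Krtap16-5 is at its lowest baseline value (12.91), and both are low on day 7.

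Among all other features with 1 gene symbol, those that followed the median of the 33 most closely over the 46 arrays were Dsg4, the desmosomal cadherin of the hair shaft (Pearson r = 0.989), Padi3, an enzyme that modifies arginines in trichohyalin (0.988), the hair keratin Krt87 (0.986), Gprc5d, a receptor of the shaft cortex (0.986), Vsig8 (0.981), Ly6g6d (0.979), S100a3, a calcium-binding protein of the hair cuticle (0.976), Samd5 (0.976), Lap3 (0.973) and Prr9 (0.972). These are descriptions over arrays that share rats, and 10 features were taken for the highest r. Dsg4 had a mean of 14.44 at baseline and 4.60 in irradiated vehicle skin on day 7, and Gprc5d 12.94 and 3.58. Lap3, an aminopeptidase that is not specific to hair, stayed well above the controls at 13.98 and 10.58.

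Regulators and partners of the hair shaft were read from lists that do not hold these 33 genes. Between irradiated and unirradiated skin on day -4, 4.19% of all features were called lower. Of 24 matrix and shaft regulators, 10 fell between irradiated and unirradiated skin on day -4 and none rose (median -1.50): Foxn1, which activates hair keratin genes, by 5.94 ± 1.16 (difference -5.94, limma, adjusted p = 0.00279) and Lef1 by 6.10 ± 1.32 (difference -6.10, limma, adjusted p = 0.00537), with Msx2 and Wnt10b. Of 18 further structural and cross-linking genes 9 fell (median -4.50), among them Gprc5d (-9.11 ± 1.68, limma, adjusted p = 0.00178) and Dsg4 (-8.82 ± 1.97, limma, adjusted p = 0.00623). Of 15 cell division genes 13 fell (median -2.32), with Mki67 at -3.69 ± 0.82 (limma, adjusted p = 0.00616). Of 11 follicle stem cell markers 4 rose and none fell (median 1.14), where 3.23% of all features rose: Fgf18 (2.66 ± 0.61), Cd34 (1.78 ± 0.41), Nfatc1 and Krt24. The part of these changes in the keratin and KAP differences was not tested. That day 1 of 4 interfollicular epidermis markers, 1 of 9 adipocyte, 1 of 11 macrophage and 1 of 8 fibroblast markers rose. None of 13 dermal papilla, 8 melanocyte, 12 sebaceous gland, 14 skeletal muscle or 6 wound keratinocyte markers passed in limma (4, 0, 3, 0 and 1 with an unadjusted p under 0.05).

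In unirradiated skin on day 7 against baseline, where 1.85% of all features fell, 6 of the 24 regulators fell, among them Foxn1 (-4.97 ± 1.04, limma, adjusted p = 0.00686), Dlx3 and Msx2, and 9 of the 18 structural genes, among them Gprc5d (-9.20 ± 1.51, limma, adjusted p = 0.000484) and Dsg4 (-9.47 ± 1.76, limma, adjusted p = 0.00237). Of the cell division genes 0 of 15 passed in limma (median -0.77, 3 with an unadjusted p under 0.05) and of the stem cell markers 0 of 11 (2 with such a p). On day 14, irradiated against unirradiated skin, 2.53% of all features were called lower. Of the 24 regulators 7 fell, with Bmp2 at -3.31 ± 0.57 (limma, adjusted p = 0.000656), and of the 18 structural genes 6 did. Tgm3, a cross-linking enzyme of the sheath, rose (2.35 ± 0.65, limma, adjusted p = 0.0234). Of the cell division genes 0 of 15 passed then, and none had an unadjusted limma p under 0.05, while 6 of 12 sebaceous gland markers fell and 11 of 11 macrophage markers rose (median 3.59; 4.43% of all features rose). Irradiated vehicle rat 320 stood apart in other markers that day, with a macrophage mean of 15.83 against 11.27 and 12.37 in rats 322 and 321, and an epidermis mean of 12.18 against 14.71 and 15.28. Without that array 6 of the 33 hair genes passed on day 14 and the median difference was -5.52. On day 7 all 6 wound keratinocyte markers rose in irradiated skin (median 4.87; 2.69% of all features rose), a day on which no hair keratin or KAP passed. The mean of the skeletal muscle markers ran from 6.42 to 18.65 over the 46 arrays. Markers of tongue, nail and other epithelia, tissues that also use some of these keratins, passed in 0 of 7 on all 5 days of this comparison.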

How the data were processed

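RNA from skin biopsies (100 ng, mean RNA integrity number 7.15) was amplified and 2.5 µg of cDNA hybridised, per the labels' protocols. The authors deposited 1 table of log2 signals for 24834 features in 46 arrays; how they were normalized is not given in sources used here. The 1646 control features were left out, of which 1153 negative controls set the background, and 23188 features were tested, 15049 with 1 gene symbol in the platform annotation. Values were used as deposited. Group means over 16 groups were fitted with limma 3.58.1 in R 4.3.3 (30 residual degrees of freedom), with Benjamini-Hochberg adjustment over all 23188 features and calls at an adjusted p under 0.05; the code was tested on simulated data. Where a group mean was at or below the negative controls, a difference is given as "at least", counted from their median.

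The 33 genes and the 14 marker lists (160 of 198 entries measured) were chosen with earlier results of these data known. Named in full are, per class, members with the highest mean or the lowest or highest spread over groups, and per comparison the called members with the highest and lowest differences (or the lowest p), and the 10 other features most like the median; Krtap13-2, rat 321 and single arrays were singled out after their values were seen. KAP classes were planned by protein composition and, with no protein table used here, follow families. Arrays were set into 3 sets by spike-in signal, which the labels do not name.

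A replicate number marks the same rat within an arm, apart from unirradiated replicate 2, and different rats across arms. Deviations from group means correlated at -0.56 to 0.47 over 55 same-numbered pairs of different rats (12 over 0.1) and at -0.48 to 0.35 over 10 pairs of the same rat (2 over 0.1); the within-rat correlation was 0.00672. Other settings tried were quantile scaling, a filter on dim features, rat, replicate number or set as a block, the compared groups alone, single sets and leaving out each array.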

Additional observations from a re-analysis of the deposited data

Results flagged for a closer look

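At baseline, rat 321 lay far below the other 5 rats, farther than Dixon's test allows for 6 samples. This held for the median of the 33 genes (11.06), and among the genes named in full for Krt35 (11.76), Krt81 (15.64), Krt86 (15.90), Krt27 (15.30), Krtap7-1 (17.51), Krtap16-5 (12.91), Krtap10-10l2 (10.06) and Krtap5-8 (10.95). Over all 33 genes, 23 had a baseline value that far out, and rat 321 was the lowest in 31. Chance flags about 1 in 20 such groups, and the genes share the same RNA, so these are not separate signs. Its values for Krtap13-2 (13.53) and Krt84 (11.39) were the highest of the 6.

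The difference between irradiated and unirradiated skin changed over the days, by the limma F-test, for 1 gene of the 33, Krtap1-5 (adjusted p = 0.0493), where 2.16% of all features passed. No gene passed with the replicate number as a block within the arm, nor without any 1 of the 3 irradiated vehicle replicates.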

How the results depend on the processing

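No called gene or count changed direction under an alternative, but medians of comparisons without calls did: with the spike-in set as a block the unirradiated medians against baseline were 1.45 on day 3 and 2.63 on day 14. Of 152 tests of single named genes past the threshold, all 152 passed with quantile scaling, without dim features and with rat as a block, 149 with the replicate block, 124 on the compared groups alone and 78 with the set as a block. Counts of called genes moved as follows. Quantile scaling gave 3 genes whose radiation difference changed over days, where 1 was reported, and the filter on dim features gave 3 there and 2 between RTA-408 days, where none was reported. With the replicate number as a block, 23 genes fell in RTA-408 skin against baseline on day -4 (13 reported) and 1 in unirradiated skin on day 1 (0 reported); within arms the same block gave 7 between unirradiated days and 0 for the radiation difference over days. With the spike-in set as a block, irradiated vehicle skin against baseline gave 4, 9 and 6 on days 3, 7 and 14, RTA-408 skin 4, 10 and 4, unirradiated skin 0 on day 7, the irradiated vehicle days 0, the unirradiated days 7 and the radiation difference over days 2. On the compared groups alone, irradiated against unirradiated skin gave 1, 1 and 0 on days 1, 7 and 14, irradiated vehicle skin against baseline 17 on day 14, RTA-408 skin 4 on day -4, unirradiated skin 17 on day 7, and both the irradiated vehicle and the unirradiated days 0. Within set I, irradiated against unirradiated skin gave 14 and 1 on days -4 and 1, irradiated vehicle skin against baseline 15 and RTA-408 skin 0 on day -4. Rat as a random block moved no count by over 1.5 times. Later days cannot be set against baseline within a set. The spike-in sets and the counting from the negative controls were chosen after seeing the data.

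Leaving out 1 array at a time, counts ran from 6 to 27, 1 to 6, 0 to 28, 0 to 0 and 0 to 32 on days -4, 1, 3, 7 and 14 for irradiated against unirradiated skin; from 17 to 29, 28 to 33, 31 to 33, 33 to 33 and 22 to 33 for irradiated vehicle skin against baseline; from 1 to 25, 27 to 32, 31 to 33, 33 to 33 and 28 to 33 for RTA-408 skin; and from 0 to 0, 0 to 2, 0 to 0, 6 to 32 and 0 to 0 for unirradiated skin, where the 2 on day 1 came without baseline rat 321 or unirradiated rat 318. Drug against vehicle stayed at 0. Over days, the counts ran from 7 to 15 in unirradiated, 0 to 1 in irradiated vehicle and 0 to 5 in RTA-408 skin, and from 0 to 6 for the radiation difference. Arrays near the negative controls give a bound, not a level, and groups of 2 or 3 arrays limit the precision.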
